A study of Homo sapiens with 6 samples.

Results

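BCL6 and a set of corepressors, BCOR, NCOR1 and CTBP1, were followed across 6 RNA-seq libraries of the SNU449 line, established from a human hepatocellular carcinoma. The 4 genes were taken by name from a deposited table of 13117 genes, and all 4 had a row. They had been picked with their Dox and Cont values already known, so these values are given below as a description, without a test. All cells carried FOXO1AAA in the doxycycline-inducible vector pInducer20; FOXO1AAA is a form of FOXO1 in which the sites phosphorylated by AKT are replaced. The Cont group (3 libraries) was grown without the drug, and the Dox group (3 libraries) was given 2 µM doxycycline hydrochloride for 48 h. Cells given the drug without the construct were not analysed here, so an effect of doxycycline and one of FOXO1AAA cannot be told apart. The labels do not say whether the line is 1 clone. They also do not tie the 3 libraries of either group to separate cultures, and the p-values then reflect only how much these libraries differ, which may be technical.

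BCL6 is a zinc finger transcription factor of the BTB family that binds DNA and silences nearby genes. It is best known from germinal-centre B cells and lymphoma, and in liver it is described as a repressor of genes of lipid use. It does not silence by itself: its BTB domain recruits BCOR or NCOR1, and CTBP1 joins it for repression of the BCL6 gene itself. BCOR brings a Polycomb complex called PRC1.1, NCOR1 brings the histone deacetylase HDAC3, and CTBP1 brings the demethylase KDM1A with other histone-modifying enzymes. BCL6 is also a described target of FOXO factors.

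The BCL6 gene lies on the minus strand of chromosome 3 (187721377 to 187745727, GENCODE 29, GRCh38). RefSeq gives promoter windows for 4 of the 4 genes, 9 in all on GRCh38.p14, each reaching from 250 bases before an annotated start to 50 after it. They were searched on both strands for GTAAACA, a FOXO motif, and for TTCNNNGAA, a palindrome common to sites of STAT factors and BCL6, which do not overlap as motifs. The first BCL6 start held 4 matches to the palindrome, and the second start held 0. The sites are shown because BCL6 is known to bind its own first exon. They are written on the gene's strand, 5′ to 3′, with 5 bases on each side and the match in capitals.
BCL6 site at -28 to -20: tcaaaTTCCGAGAAttgag
BCL6 site at -5 to 4: gttgaTTCTTAGAActggg
BCL6 site at 11 to 19: tggggTTCTTAGAAgtggt
BCL6 site at 37 to 45: gaagtTTCTAGGAAaggcc
Positions count from the annotated start, with negative numbers before it. The stretch before this RefSeq start (chr3:187745469-187745718, minus strand) is shown for context, with its 1 complete match in capitals. GENCODE 29 starts the gene further out, at 187745727, so the stretch lies inside the gene as annotated there.
BCL6 upstream: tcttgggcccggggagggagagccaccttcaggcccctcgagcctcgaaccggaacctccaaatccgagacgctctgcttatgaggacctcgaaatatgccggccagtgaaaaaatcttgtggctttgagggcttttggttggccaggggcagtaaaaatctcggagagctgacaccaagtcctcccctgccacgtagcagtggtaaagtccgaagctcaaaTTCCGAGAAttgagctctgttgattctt

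Of 35116 RefSeq promoter windows of this length, 2689 (7.66%) held the palindrome at least once and 7 (0.0199%) held it 4 times or more. The window of CISH, a cytokine-induced inhibitor gene described as a BCL6 target and named here after its count was seen, was another of these 7. Among the corepressors, the second NCOR1 start carried 1 match, and the windows of BCOR and CTBP1 carried 0.
NCOR1 site at 6 to 14: gtggtTTCCTAGAAacatg
GTAAACA was not found in any of the 9 windows, while 3.42% of all windows held it. A match is a run of letters, and binding was not measured.

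**Figure D1:**
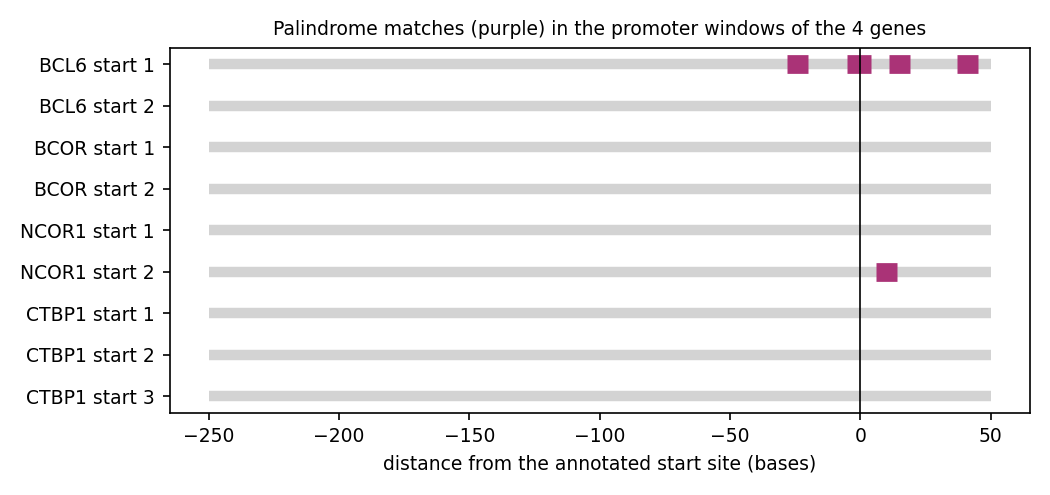
Promoter windows of the 4 genes (grey bars, 9 annotated starts), drawn by distance from the start site in bases. Purple blocks mark matches to TTCNNNGAA: 4 around the first BCL6 start, 1 at the second NCOR1 start and 0 in the other windows.

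BCL6 mRNA was scarce in Cont and common in Dox. Levels are in FPKM, fragments per kilobase of transcript per mega mapped reads, which can be compared between genes. BCL6 was at 2.14, 1.73 and 2.79 FPKM in the 3 Cont libraries while the 3 Dox libraries had 34.6, 34.2 and 28.6. The groups did not overlap, and the lowest Dox library stood far above the highest Cont library. Mean BCL6 was 2.22 ± 0.535 in Cont and 32.5 ± 3.36 in Dox (SD, n = 3), 14.6-fold higher. The difference was 3.39 on a log2(FPKM + 1) scale, where changes of low genes come out too small, and 74 of the 11526 tested genes had a larger one. In Cont the BCL6 level exceeded that of 13.4% of tested genes, and in Dox that of 71.9%. The Cont libraries varied more around their mean (24.1%) than the Dox libraries (10.3%). Depth was not the limit, with an estimated 252 to 393 BCL6 reads per Cont library and 3750 to 6830 per Dox library. In bulk RNA, more cells with BCL6 and more BCL6 RNA per cell cannot be told apart.

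BCOR, on chromosome X (40049815 to 40177329), encodes the corepressor named after BCL6 and went the opposite way. It was at 35.5, 35.2 and 41.5 FPKM in Cont and at 8.12, 8.44 and 9.80 in Dox. Every Dox library was well below every Cont library. Mean BCOR was 37.4 ± 3.59 in Cont and 8.79 ± 0.892 in Dox (SD, n = 3), 4.26-fold lower, with a log2 difference of -1.97. Of the tested genes, 3.91% had a lower log2 difference.

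NCOR1, on chromosome 17 (16029157 to 16218185), encodes the large scaffold through which nuclear receptors and BCL6 reach HDAC3. It was at 18.0, 18.8 and 21.0 FPKM in Cont and at 34.2, 33.9 and 33.1 in Dox. The Dox libraries lay close together and all above Cont. The means were 19.3 ± 1.58 and 33.7 ± 0.561 (SD, n = 3), 1.75-fold higher in Dox with a log2 difference of 0.78.

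CTBP1, on chromosome 4 (1211448 to 1249953), encodes a corepressor related to NAD-dependent dehydrogenases. It was at 39.5, 39.6 and 33.6 FPKM in Cont and at 29.1, 24.7 and 28.2 in Dox. The Dox libraries were all lower, but the gap between the lowest Cont and the highest Dox library was about as wide as the spread inside a group. The means were 37.6 ± 3.43 and 27.3 ± 2.32 (SD, n = 3), 1.37-fold lower in Dox with a log2 difference of -0.44.

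The 4 genes therefore showed groups without overlap, 2 higher and 2 lower in Dox. This is common here: the groups did not overlap in 82.1% of tested genes, in 38.4% with Dox higher and in 43.7% with Dox lower. Scaling moved the small differences. The 13 mitochondrially encoded mRNAs took 3.0 to 4.67% of the summed FPKM in Cont and 13.2 to 14.7% in Dox. In TPM (FPKM rescaled so that every library has the same total), computed without these 13, the log2 difference of CTBP1 was -0.18 and that of NCOR1 was 1.06. The median of all tested genes was -0.06 in FPKM and 0.22 with that scaling. The filter was then applied to TPM, and 12078 genes were tested against 11526. Relative to the median of each scale, CTBP1 was at -0.38 in the FPKM values and at -0.39 in those TPM, and NCOR1 at 0.84 and 0.85.

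Exons of 3 of the 4 genes overlap genes on the other strand in GENCODE 29. BCL6 exons overlap AC072022.1 and AC072022.2, CTBP1 exons overlap CTBP1-AS and CTBP1-DT, and NCOR1 exons overlap AC002553.1 and PIGL. The sources used here do not say whether reads were counted by strand, so reads of such pairs cannot be told apart. PIGL itself was at 12.5, 18.3 and 15.1 FPKM in Cont and at 9.82, 14.1 and 9.35 in Dox, with overlapping groups, and was on average lower in Dox where NCOR1 was higher. BCOR has 1 and NCOR1 has 3 annotated pseudogenes, and how reads shared with them were handled is unknown here.

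**Figure D2:**
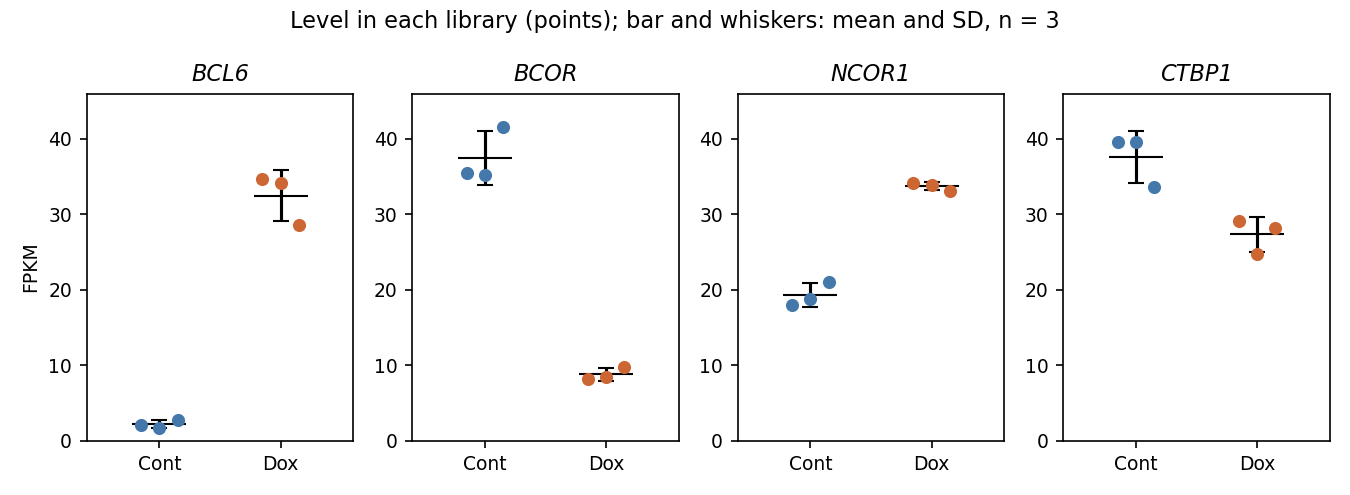
FPKM of BCL6, BCOR, NCOR1 and CTBP1 in each library (points; blue Cont, orange Dox), with the mean and SD of 3 libraries in black. BCL6 and NCOR1 were higher and BCOR and CTBP1 lower in Dox, and no gene's groups overlapped.

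The order of the 4 levels turned around. In Cont, CTBP1 (37.6 FPKM) and BCOR (37.4) were level within their spread, NCOR1 (19.3) came next and BCL6 (2.22) was last. In Dox, NCOR1 (33.7) and BCL6 (32.5) were level within their spread, CTBP1 (27.3) followed and BCOR (8.79) was last. The summed level of the 3 corepressors was 94.3 ± 1.71 FPKM in Cont and 69.8 ± 2.42 in Dox (SD, n = 3), 1.35-fold lower. This sum was not recomputed under the other scalings, which moved small differences.

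Relative to its partners' mRNAs, BCL6 shifted most against BCOR. The ratio of BCL6 to BCOR, both in FPKM, was 0.0603, 0.0491 and 0.0671 in Cont and 4.26, 4.05 and 2.92 in Dox. BCL6 mRNA went from a small fraction of BCOR mRNA to several times its level. BCL6 to NCOR1 went from 0.114 ± 0.0207 to 0.963 ± 0.0847 (SD, n = 3), near parity in Dox. BCL6 to CTBP1 went from 0.0602 ± 0.0204 to 1.20 ± 0.184. NCOR1 and BCOR, which contact the same groove of the BCL6 BTB domain, stood at a ratio of 0.516 ± 0.0154 in Cont and 3.86 ± 0.435 in Dox. These are ratios of mRNA, and protein was not measured.

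**Figure D3:**
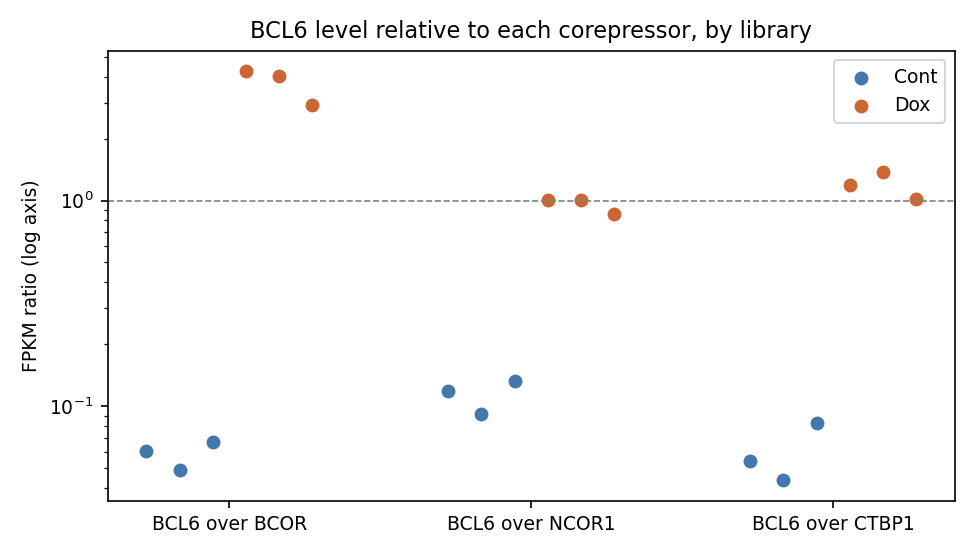
Ratio of BCL6 FPKM to the FPKM of each corepressor in each library, on a log axis, with a dashed line at equal levels. All Cont ratios are at or below 0.133, and the Dox ratios run from 0.865 to 4.26.

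Other genes of these complexes came from lists made by their described roles, with earlier results of these data known, and were tested with limma on log2(FPKM + 1), with Benjamini-Hochberg adjustment over all 11526 tested genes. At an adjusted p under 0.05, 80.4% of tested genes were called, 37.6% higher and 42.8% lower in Dox. Of the tested genes, 681 passed the filter (FPKM 1 in 3 libraries) through 1 group alone, with every library of the other group under FPKM 1; such a gene had to differ, so counts of lists are also given without them, a choice made after seeing the data. Of 46 partner genes listed, 43 had a row and all 43 were tested: 16 were called higher, 21 fell and 6 were not called. Without HIC1 15 rose. The share called, 86.0%, is close to the background. Their median log2 change was -0.22, against -0.06 for all tested genes. In TPM without mitochondrially encoded mRNAs the split was 19 rises and 16 falls. With that scaling, rises made up 60.2% of the calls among all tested genes, against 46.7% in FPKM.

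Among paralogs of the corepressors, CTBP2 and BCORL1 fell. CTBP2, the sister of CTBP1, fell from 17.2 ± 0.214 to 8.69 ± 0.603 FPKM (log2 change -0.91, limma adjusted p = 2.67e-06). BCORL1, the sister of BCOR, fell from 154 ± 24.3 to 92.9 ± 18.7 (log2 change -0.73, limma adjusted p = 0.00106), and the BCOR to BCORL1 ratio went from 0.245 ± 0.0142 to 0.096 ± 0.0118. BCL6B was not analysed here. These 2 falls kept their call in each of the 18 alternatives run.

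Around NCOR1, 2 of 9 tested genes rose, 4 fell and 3 were not called, a share called of 66.7% against 80.4%. In TPM without mitochondrially encoded mRNAs the split was 4 higher and 2 lower, where rises made up 60.2% of all calls. HDAC3, the catalytic deacetylase of the complex, was at 28.4 ± 2.29 and 26.4 ± 1.17 FPKM (SD, n = 3; limma adjusted p = 0.274). Its sign turned in TPM and under quantile normalization, without a call. In TPM without mitochondrially encoded mRNAs it turned too and was called higher (log2 change 0.17, limma adjusted p = 0.0493). TBL1X, a WD40 subunit, fell from 237 ± 17.5 to 128 ± 12.8 (log2 change -0.88), whereas its paralog TBL1XR1 rose from 15.4 ± 0.71 to 18.6 ± 0.527 (limma adjusted p = 0.00818, log2 change 0.26). Of the class IIa deacetylases, which BCL6 also contacts, HDAC5 rose from 6.82 ± 0.97 to 16.8 ± 0.561 (log2 change 1.19) and HDAC7 fell from 19.8 ± 1.88 to 9.10 ± 0.316 (log2 change -1.04). GPS2 fell (log2 change -0.40), a call lost when Cont replicate 2 was left out (limma adjusted p = 0.0672) and, at 0.096, when TPM excluded the mitochondrially encoded mRNAs. HDAC9 was called lower (log2 change -0.22, limma adjusted p = 0.0184) but not under any of the 4 scalings tried, nor without Cont replicate 1, Cont replicate 2 or Dox replicate 1. HDAC4 (log2 change 0.18, limma adjusted p = 0.0855) and CORO2A (-0.23, 0.13) were not called. HDAC4 was called higher in 3 of the 4 scalings and without the trend, and CORO2A lower under quantile normalization (limma adjusted p = 0.000656).

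In PRC1.1, the Polycomb complex that BCOR assembles, RYBP had the largest log2 change of the 8 tested genes. RYBP, a RING1-binding subunit, was at 5.27 ± 0.175 FPKM in Cont and 21.8 ± 0.94 in Dox (SD, n = 3; log2 change 1.86, SE 0.0773, limma adjusted p = 1.75e-08). Its paralog YAF2 was not called (log2 change 0.17, limma adjusted p = 0.163), but was called higher in TPM (0.0405) and in TPM without mitochondrially encoded mRNAs (0.00608). The E3 ligase subunit RNF2 fell from 16.4 ± 1.25 to 10.1 ± 1.17 (log2 change -0.65) and the deubiquitinase USP7 from 27.9 ± 1.26 to 19.0 ± 1.40 (log2 change -0.54). SKP1 rose (log2 change 0.38). KDM2B, which targets the complex to CpG islands, fell (log2 change -0.38, limma adjusted p = 0.01), a call lost in TPM with and without mitochondrially encoded mRNAs (limma adjusted p = 0.0542 and 0.318). PCGF1, the subunit that pairs directly with BCOR, was at 15.3 ± 1.37 and 15.0 ± 2.21 (limma adjusted p = 0.802), and CBX8 was not called either (limma adjusted p = 0.751). Of the 8 tested genes, 2 rose, 3 fell and 3 were not called, a share called of 62.5% against 80.4%. In TPM without mitochondrially encoded mRNAs 3 were called higher and 2 lower. RING1 was not analysed here.

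The list around CTBP1 had 10 calls higher and 4 lower among 14 tested genes. Among all tested genes 37.6% were called higher and 42.8% lower. The median log2 change of the list was 0.61, against -0.06 for all tested genes. Without HIC1, which passed the filter through Dox alone, it had 9 rises and 4 falls and a median of 0.57, against -0.11 for all tested genes treated likewise. EHMT1, a histone H3 lysine methyltransferase, was at 16.2 ± 0.36 FPKM in Cont and rose to 46.9 ± 2.65 in Dox (SD, n = 3; limma adjusted p = 4.37e-08, log2 change 1.48). RCOR1 (CoREST), the scaffold that holds KDM1A, rose from 11.5 ± 0.604 to 29.7 ± 3.11 (log2 change 1.29), and RCOR3 from 58.4 ± 5.99 to 92.6 ± 7.18 (log2 change 0.66). KDM1A itself, the demethylase, fell from 49.5 ± 1.56 to 21.6 ± 2.68 (log2 change -1.16, limma adjusted p = 1.32e-06). The deacetylase genes HDAC1 (log2 change -0.56) and HDAC2 (-0.70) fell as well. With the DNA-binding factor gene RREB1 these 3 enzyme genes made up the 4 falls. The corepressor gene LCOR (log2 change 1.25), the chromodomain gene CDYL (0.94) and the repressor gene ZNF217 (0.73) rose. The repressor gene HIC1 was at 0.608, 0.325 and 0.831 FPKM in Cont and at 2.13, 2.00 and 2.24 in Dox, given without a test. ZEB1 (log2 change 0.57) and ZEB2 (0.42), zinc finger repressors that bind CTBP, rose, but the call of ZEB2 was lost under quantile normalization (limma adjusted p = 0.137). RREB1 (log2 change -0.29) and WIZ (0.21) passed narrowly: RREB1 lost its call in TPM with and without mitochondrially encoded mRNAs (limma adjusted p = 0.101 and 0.662) and without Dox replicate 2 (0.0677), and WIZ without Cont replicate 1, Cont replicate 2, Dox replicate 1 or Dox replicate 3 (0.0562, 0.0831, 0.0552 and 0.0694). EHMT2 was not analysed here.

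SIN3 and NuRD, deacetylase complexes that BCL6 can also use, had 2 rises and 7 falls among 9 tested genes. Among all tested genes 37.6% were called higher and 42.8% lower. The median log2 change of the list was -0.72, against -0.06 for all tested genes. MTA2 fell from 53.7 ± 0.614 to 17.9 ± 2.34 FPKM (log2 change -1.54, limma adjusted p = 1.74e-07; SD, n = 3), MTA1 from 36.8 ± 0.977 to 19.1 ± 0.282 (-0.91) and the histone chaperone gene RBBP7 from 972 ± 108 to 377 ± 25.9 (-1.36). MTA3, the NuRD subunit described as a BCL6 partner in B cells, rose from 6.21 ± 0.803 to 8.48 ± 0.918 (limma adjusted p = 0.00804, log2 change 0.40). SIN3A fell (log2 change -0.55) and its paralog SIN3B rose (0.45). RBBP4 (-0.89) and the remodeller gene CHD4 (-0.72) fell. MBD3 was called lower (log2 change -0.22, limma adjusted p = 0.0314) but not under any of the 4 scalings tried, nor without Cont replicate 1, Cont replicate 2, Dox replicate 1 or Dox replicate 2.

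**Figure D4:**
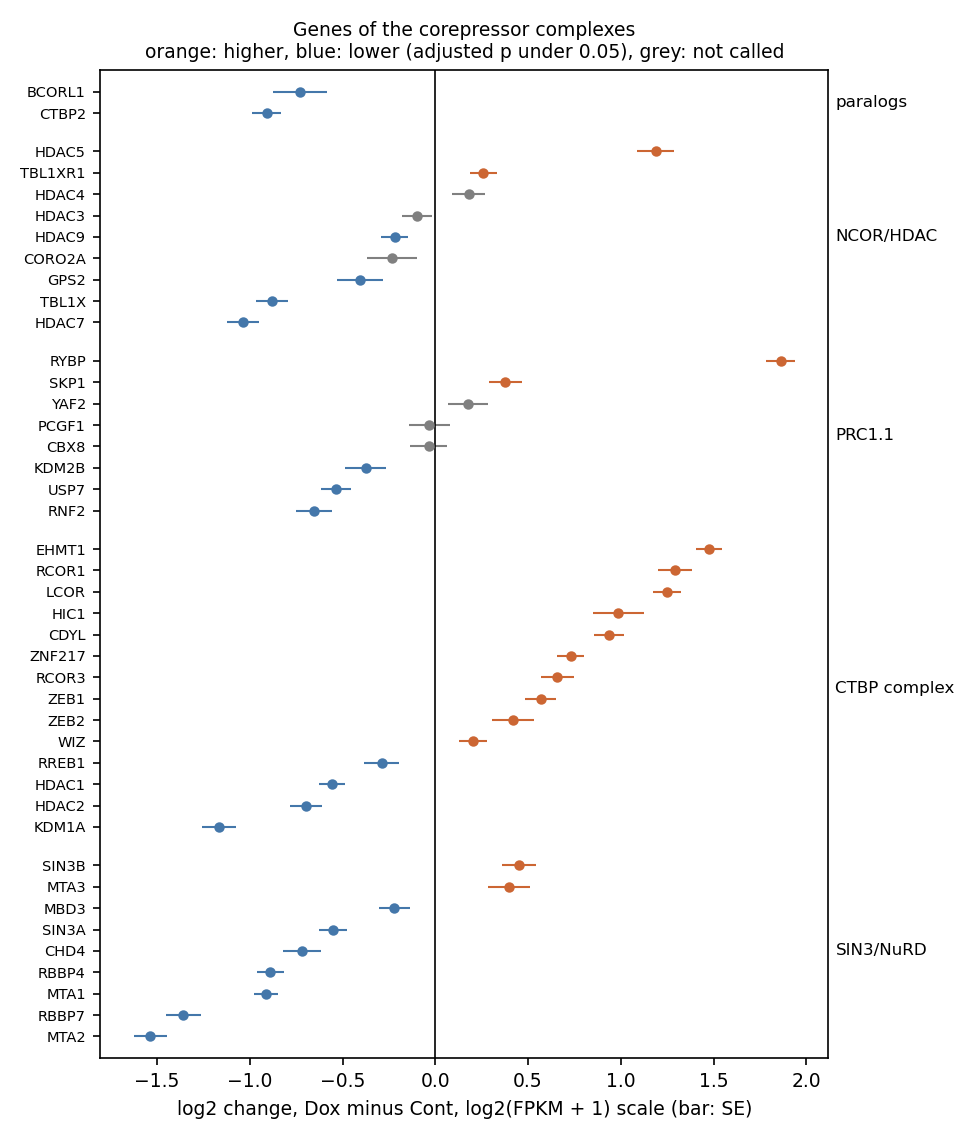
Log2 change (Dox minus Cont, log2(FPKM + 1) scale) with its SE for 42 of the 43 tested partner genes, grouped by complex; orange and blue mark calls higher and lower, grey no call. CTBP2 and BCORL1 lie left of 0, 10 of the 14 genes around CTBP1 lie right of it (HIC1 passed the filter through Dox alone), and RYBP is the rightmost point at 1.86.

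Of 11 tested genes that control BCL6, 8 were called higher and 3 fell. Among all tested genes 37.6% were called higher and 42.8% lower. FOXO1 and PRDM1 passed the filter through Dox alone, and without them 6 of 9 rose and 3 fell. For all tested genes treated likewise, 3792 of 10845 rose and 4796 fell. CREBBP and EP300, acetyltransferases (EP300 inactivates BCL6 by acetylation), rose from 9.99 ± 0.738 to 20.9 ± 0.962 FPKM and from 15.4 ± 2.03 to 32.3 ± 0.788 (SD, n = 3; log2 changes 1.00 and 1.03, limma adjusted p = 1.71e-06 and 3.48e-06). FBXO11, which marks BCL6 protein for degradation, rose from 76.9 ± 4.47 to 99.5 ± 2.86 (log2 change 0.37), and the deacetylase gene SIRT2 rose by 0.44 in log2. FOXO3 rose (log2 change 1.20). FOXO1 was at 0.741, 0.776 and 0.890 FPKM in Cont and at 2.87, 3.50 and 2.01 in Dox, given without a test, and may include reads of the construct, which the table does not separate. STAT5B rose (log2 change 0.30), and STAT3 fell (-0.42), a call lost in TPM without mitochondrially encoded mRNAs (limma adjusted p = 0.108). HSP90AA1, a chaperone that stabilises BCL6 protein, fell from 1144 ± 62.8 to 217 ± 26.7 (log2 change -2.40), and HSP90AB1 fell by 2.50 in log2. STAT5A had a row but missed the filter, and IRF4, IRF8 and MEF2B were not analysed here.

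PRDM1 (BLIMP1), a repressor that opposes BCL6 in B cells and that BCL6 is known to silence, was on the same side as BCL6. It was at 0.0318, 0.0965 and 0.0343 FPKM in Cont, worth an estimated 3.1 to 18.4 reads, and at 3.23, 4.06 and 2.62 in Dox. All Dox libraries were above all Cont libraries. PRDM1 passed the filter through Dox alone, so no test is given, and the Cont level rests on few reads.

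Genes described as repressed by BCL6, mostly from B cells, did not move one way. Of 25 listed, 18 had a row and 17 were tested: 6 were called higher, 8 fell and 3 were not called. The share called was 82.4%, against 80.4% of all tested genes. Without PRDM1, 5 of 16 rose and 8 fell. The other 7 were not analysed here, among them CCND2, CD69 and CXCL10. Besides EP300, which also stands among the regulators, the rises were those of the sphingosine phosphate receptor gene S1PR1 from 4.99 ± 1.74 to 20.5 ± 0.908 FPKM (log2 change 1.89, limma adjusted p = 8.48e-06; SD, n = 3), the cell cycle inhibitor gene CDKN1B from 86.3 ± 7.12 to 172 ± 13 (0.99), PDCD2 (0.41) and the DNA damage kinase gene ATR (0.28). The checkpoint kinase gene CHEK1 fell from 101 ± 2.74 to 34.8 ± 6.85 (log2 change -1.54). The falls of CD44 (-4.25), MYC (-3.21) and the survival gene BCL2L1 (-2.95) were larger, and NFKB1 (-0.66) and BCL2 (-0.72) fell too. CDKN1A (limma adjusted p = 0.16), ID2 (0.315) and SOCS2 (0.0567) were not called. CDKN1A was called lower without Dox replicate 2 (limma adjusted p = 0.0198), ID2 higher without Dox replicate 3 (0.01) and in TPM without mitochondrially encoded mRNAs (0.028), and SOCS2 lower without Cont replicate 1 (0.048) or Cont replicate 3 (0.0423), under quantile normalization (0.0106) and with a replicate block (0.0499). CISH, whose promoter carries as many palindromes as that of BCL6, missed the filter, with 1.12, 1.18 and 0.996 FPKM in Cont and 0.398, 0.408 and 0.448 in Dox.

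Lipid genes described as BCL6 targets in liver had 5 rises and 3 falls among 9 tested, with 1 not called. That is a share called of 88.9%, against 80.4% of all tested genes (37.6% higher, 42.8% lower). On the same genes, 6 were called higher and 2 lower with median-of-ratios scaling, and 6 and 3 under quantile normalization. VNN1 missed the filter, and FABP1, CREB3L3 and FGF21 were among those not analysed here. PPARA, the fatty acid receptor whose targets BCL6 is described to share, was at 51.2, 53.8 and 58.6 FPKM in Cont and at 113, 112 and 118 in Dox (log2 change 1.06, SE 0.0703, limma adjusted p = 3.92e-07). PDK4, a kinase that limits pyruvate oxidation, rose from 3.48 ± 0.241 to 8.76 ± 0.493 (SD, n = 3; log2 change 1.12), and the carnitine palmitoyltransferase genes CPT1A (0.56) and CPT2 (0.57) and the dehydrogenase gene ACADM (0.39) rose. The lipid droplet gene PLIN2 fell from 130.0 ± 15.0 to 58.7 ± 9.65 (log2 change -1.14) and the lipase inhibitor gene ANGPTL4 fell by 1.58 in log2. EHHADH was called lower (log2 change -0.28, limma adjusted p = 0.0433), but not without Cont replicate 1 (0.108), Cont replicate 3 (0.137), Dox replicate 1 (0.084) or Dox replicate 2 (0.134), nor in 3 of the 4 scalings. Taking both target lists, 11 of 26 tested genes were called higher and 11 lower. Their median log2 change was 0.00385, against -0.06 for all tested genes. Without PRDM1 10 of 25 rose and 11 fell, with a median of -0.15, against -0.11 for all tested genes treated likewise. In TPM that left out mitochondrially encoded mRNAs, 14 were called higher and 11 lower. The filter there was applied to TPM, so more genes could pass. With that scaling the median of the targets was 0.28, and that of all tested genes was 0.22.

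**Figure D5:**
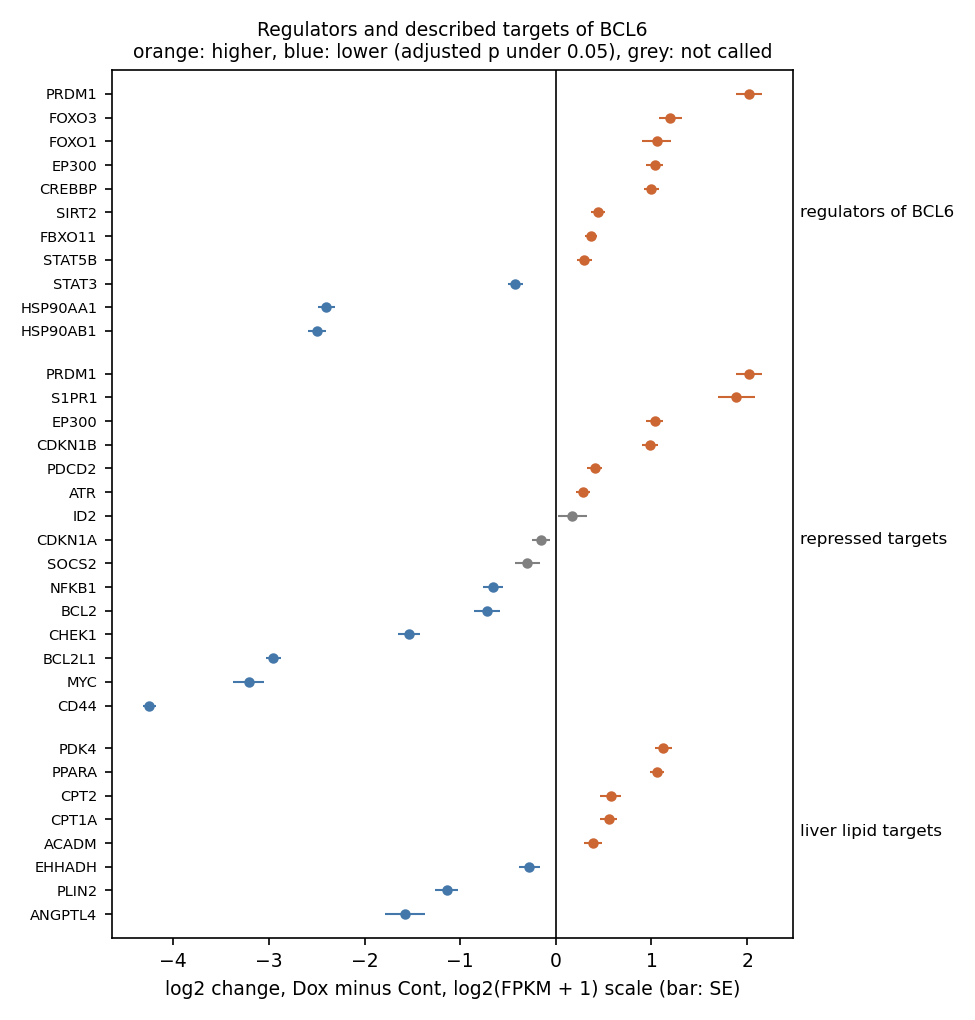
Log2 change (Dox minus Cont, log2(FPKM + 1) scale) with its SE for most tested regulators and described targets of BCL6; orange and blue mark calls higher and lower, grey no call. Regulators lie mostly right of 0, and the repressed targets run from CD44 at -4.25 to S1PR1 at 1.89 and PRDM1 at 2.02; PRDM1 and FOXO1 passed the filter through Dox alone.

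Some genes had profiles near those of the 4 genes on the log2(FPKM + 1) scale. Likeness was the root-mean-square difference between profiles of log2(FPKM + 1), each centred on its own mean over 6 libraries, among all tested genes. Nearest to BCL6 were PIK3CA, a PI3K catalytic subunit gene (0.106), PLPP1, a lipid phosphatase gene (0.11), AHI1, a ciliary gene (0.111), SLC35D1, a nucleotide sugar carrier gene (0.112), and FANK1 (0.118), where the median gene differed by 1.74. PLPP1, for example, went from 6.54 ± 0.53 to 73.1 ± 4.31 FPKM (SD, n = 3). Nearest to BCOR were CDC25B, a cell cycle phosphatase gene (0.042), CLVS1 (0.0504) and CAD, a pyrimidine synthesis gene (0.0524). CDK12, a transcription kinase gene (0.0248), MAP1A (0.0259) and AP1G1 (0.0298) were nearest to NCOR1, and UBA3 (0.02), MRPL51 (0.0312) and PPIL4 (0.0335) to CTBP1. The offset of 1 shrinks the change of low genes, so a near profile need not be a like fold: CLVS1 was 24.9-fold lower in Dox against 4.26-fold for BCOR, FANK1 was 22.4-fold higher against 14.6-fold for BCL6, and MAP1A was 2.50-fold higher against 1.75-fold for NCOR1. These distances describe 6 libraries in 2 groups.

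Markers of germinal-centre B cells, where BCL6 is best known, and of hepatocytes were read beside these results. Of 9 germinal-centre B cell markers, 2 had a row, and MS4A1, CD79A, CD79B, CD38 and PTPRC were among those not analysed here. PAX5, a B cell transcription factor gene, had an estimated 2, 0 and 0 reads in Cont and 203, 158 and 116 in Dox, at 0.494 ± 0.0589 FPKM in Dox (SD, n = 3), too low to be tested. MME was at 5.22 ± 1.80 and 3.57 ± 0.138 (limma adjusted p = 0.0513). MME was called lower without Cont replicate 1 (limma adjusted p = 0.0485) or Cont replicate 2 (0.0142), under quantile normalization (0.0126) and with a replicate block (0.0336). The summed level of these markers was 3.91 to 7.29 FPKM in Cont and 3.96 to 4.16 in Dox, and the part of such cells in the BCL6 values was not tested. Of 10 hepatocyte markers, 3 had a row, with a summed level of 7.61 to 17.8 FPKM in Cont and 5.62 to 9.81 in Dox. AFP fell (log2 change -0.95, limma adjusted p = 0.0114), a call lost without Dox replicate 3 (0.0575), while ALB (0.321 ± 0.239 and 1.19 ± 0.459 FPKM) was low and missed the filter. AFP was above 1 FPKM in every library. Its groups overlapped, at 17.1, 15.7 and 7.3 FPKM in Cont and 5.3, 8.6 and 4.7 in Dox. APOA1, APOA2, APOB, TTR, SERPINA1, TF and HNF4A were not analysed here.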

How the data were processed

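Poly(A) RNA of 3 Cont and 3 Dox libraries was sequenced; per the labels' protocols, Dox cells had 48 h of 2 µM doxycycline. The authors deposited log2 FPKM values for 13117 genes; FastQC 0.11.7 and GRCh38 are named in the submitters' processing notes. The aligner, counter, annotation and filters are not given in the sources used here. Columns were matched to samples by title, because 1 Cont description names another Cont column.

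FPKM was taken as 2 to the power of the deposited value. A gene was tested if 3 or more libraries reached FPKM 1, which 11526 genes did. The test was limma 3.58.1 in R 4.3.3, two-sided, on log2(FPKM + 1), moderated by empirical Bayes along a mean-variance trend, and p-values were adjusted by Benjamini-Hochberg. The method was tested on simulated data in which far fewer genes changed than were called here. That test does not check these calls or the scaling. Depth, estimated from the steps of 307 genes whose lowest value recurs and from GENCODE 29 transcript lengths, was roughly 28.5 to 47.2 M reads per library (M for mega); this scale is rough.

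The members and lists were chosen with earlier results of these data known. Paralogs were named, then up to 6 called genes per list by size and up to 4 that were not called or went against their list. Named outside that rule were other tested genes of the lists, CISH, PIGL and untested genes. A few listed genes enter the counts but are not reported here by name or drawn. Alternatives were other pseudocounts (0.1, 0.01), filters (none, FPKM 5), scalings (TPM, median-of-ratios, quantile normalization, TPM without mitochondrial mRNAs), the deposited log2 values, no trend, robust moderation, a replicate block and leaving out each library. Both TPM fits applied the filter to TPM, and the fits with a library left out asked for fewer libraries, so their gene sets differ. List counts without genes that passed the filter through 1 group alone were added after seeing the data.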

Additional observations from a re-analysis of the deposited data

How the results depend on the processing

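The 4 members kept their direction in all 18 alternatives run. BCL6, at 3.39 in log2, was at 3.83 and 3.89 with pseudocounts of 0.1 and 0.01 and at 3.90 in the deposited log2 values, where a smaller offset shrinks low values less. It was at 3.83 in TPM without mitochondrially encoded mRNAs. In that TPM, BCOR was at -1.75, NCOR1 at 1.06 and CTBP1 at -0.18. NCOR1 was at 0.90 in TPM and 0.90 under quantile normalization. HDAC3 (0.17), HDAC9 (0.053) and MBD3 (0.040) turned their sign in TPM without mitochondrially encoded mRNAs. So did PCGF1 (0.24), CBX8 (0.22) and CDKN1A (0.12), which were called neither there nor in FPKM. HDAC3, PCGF1, CBX8 and CDKN1A also turned, without a call, in 1 or more of the other scalings. PCGF1 and CBX8 did so with some libraries left out as well. In TPM without mitochondrially encoded mRNAs the median of all tested genes was 0.22, over 12078 genes, against -0.06 in FPKM, over 11526. The cause of the turned signs was not tested. When 1 library was left out, BCL6 ran from 3.27 to 3.51, BCOR from -2.04 to -1.90, NCOR1 from 0.73 to 0.84 and CTBP1 from -0.52 to -0.38. Partner genes then had 15 to 16 rises and 18 to 21 falls, the described targets 11 to 12 of each, and all tested genes 8937 to 9385 calls. These fits asked for FPKM 1 in only 2 libraries, a filter that CISH could pass, and tested 11616 to 11723 genes. The ranges therefore do not follow a fixed set of target genes. Over the other pseudocounts, filters, scalings and model settings the described targets had 9 to 14 calls higher and 9 to 12 lower. Fewer genes were tested at the FPKM 5 filter, and more without a filter or in TPM. Of 78 tested partner, regulator and target genes, 61 kept their side of the threshold and their called sign in every alternative that tested them. Higher genes made up 46.7% of all calls, and 60.2% in TPM without mitochondrially encoded mRNAs. With the replicate number as a block, 9272 genes were called against 9265, and partner genes had 16 rises and 21 falls. Of these genes only SOCS2 changed its call under the block (adjusted p = 0.0499, limma), and of the 2 tested cell type markers MME did (adjusted p = 0.0336, limma). Deviations of same-numbered Cont and Dox libraries correlated at 0.0371, -0.00483 and 0.0793 across genes. Those of unlike-numbered libraries ran from -0.093 to 0.092. Such values cannot show whether equal numbers mark paired cultures, which stays unknown here.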
